A study of Homo sapiens with 6 samples.

Results

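The miR-191 and miR-425 cluster gives 4 mature miRNAs, hsa-miR-191-5p, hsa-miR-191-3p, hsa-miR-425-5p and hsa-miR-425-3p, which were taken by name as 4 of the 1582 miRNAs counted by small RNA sequencing of MDA-MB-231 cells. MDA-MB-231 is a human triple-negative breast cancer (TNBC) cell line with mesenchymal features, which lacks the estrogen receptor. The study asked which miRNAs respond to RARαS77A, a retinoic acid receptor α in which a phosphorylated serine is replaced by alanine. The RARαS77A group had 3 libraries of cells transfected with RARαS77A, described in the design as lentiviral, and the control group had 3 libraries of non-transfected cells. As the control received no empty vector, delivery and mutant receptor cannot be told apart. No source used here says that the replicates were separate cultures, so the p-values measure only the spread between these libraries.

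A miRNA precursor folds into a hairpin, from which Dicer releases a duplex of a 5p and a 3p strand. An Argonaute protein keeps either strand, while the other is usually degraded, so the arms of a hairpin share their transcription but not their stability. miR-191 and miR-425 are transcribed with their host gene DALRD3, whose protein takes part in the methylation of arginine tRNAs. In breast cancer cells the cluster is known for its induction by the estrogen receptor. miR-191-5p is also in wide use as a reference in qRT-PCR of miRNAs, as is miR-425-5p.

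The hairpins lie on the minus strand of chromosome 3 in GENCODE 29 (GRCh38), MIR191 at chr3:49020618-49020709 and MIR425 downstream of it at chr3:49020148-49020234, with 383 bases between them. DALRD3 (chr3:49015488-49022293, minus strand) has 15 annotated transcripts, of which 4 span both hairpins, and in each of the 4 both hairpins are intronic. MIR191 also lies in an intron of 1 transcript of NDUFAF3, which is on the plus strand.

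The mature strands are shown because the results turn on the arm of the hairpin and not on the hairpin alone. They are RefSeq sequences (GRCh38.p14), 5′ to 3′, with the seed (bases 2 to 8, which pairs with target mRNAs) in capitals.
hsa-miR-191-5p: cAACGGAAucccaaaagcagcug
hsa-miR-191-3p: gCUGCGCUuggauuucgucccc
hsa-miR-425-3p: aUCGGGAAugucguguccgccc
In the MIR191 hairpin the capitals mark both arms, the 5p arm at positions 16 to 38 and the 3p arm at positions 58 to 79, with 19 bases between them.
MIR191 hairpin: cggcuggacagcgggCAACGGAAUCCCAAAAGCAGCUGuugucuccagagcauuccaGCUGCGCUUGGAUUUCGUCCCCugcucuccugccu
The 3 seeds shown differ from each other, and no other name among the 2370 distinct mature miRNA names of the RefSeq table has any of these seeds.

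The libraries held between 9019266 and 11338580 counts, and the marker levels that follow are CPM, the count relative to the total of its library. The total level of 6 epithelial miRNAs (the miR-200 family and miR-205-5p), which are low in this line, was 114 to 128 CPM in control and 89.7 to 97.1 in RARαS77A libraries. With TMM scaling, which corrects for composition, the order was reversed. The levels were then 91.4 to 105 CPM in control and 111 to 119 CPM in RARαS77A libraries. Single members of this list differed in direction. hsa-miR-200b-3p was called higher (log2 fold change 0.49, adjusted p = 0.0241, edgeR). hsa-miR-200c-3p (0.24, adjusted p = 0.284, edgeR), hsa-miR-200a-3p (-0.35, adjusted p = 0.173, edgeR) and hsa-miR-205-5p (-0.53, adjusted p = 0.683, edgeR) were not called. Control replicate 3 stood apart from the other controls in miRNAs of pluripotent stem cells (miR-302, miR-367-3p and miR-372-3p). Their summed level was 0.185 and 0.0882 CPM in control replicates 1 and 2, against 416.8 in control replicate 3 and 275 to 285 in the RARαS77A libraries. Results are therefore also given without control replicate 3, and some with a term that sets control replicates 1 and 2 apart. Without control replicate 3 this difference coincides with that between the groups, so they cannot be told apart. The term rests on 1 control library. The part of the stem cell miRNA difference in the results was not tested further. In control replicate 1, the 3 muscle miRNAs summed to 91.3 CPM, against 2.65 to 4.88 in the other libraries. TMM scaling was applied to the counts before the quasi-likelihood test of edgeR, with Benjamini-Hochberg adjustment over the 506 miRNAs that passed the expression filter. All 4 strands passed. From here on, CPM are TMM-normalized.

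In RARαS77A cells the strands of miR-425 moved in opposite directions. miR-425-5p rose 1.92-fold, its partner strand miR-425-3p fell to 0.644 of the control level, and neither strand of miR-191, from the same intron, was called. For miR-191-3p, with only 27 to 144 counts per library, the log2 fold change was -0.79 (adjusted p = 0.0740, edgeR), against -0.64 for miR-425-3p. Its missing call therefore does not set the 3p strands apart. Of the 4 strands, 1 was called higher and 1 lower, where 23.3% of all tested miRNAs were called higher and 21.1% lower.

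hsa-miR-425-5p is the strand of MIR425 that accumulates. The control libraries held 23203, 26332 and 20663 counts of it, and the RARαS77A libraries 30240, 30875 and 25953. As TMM-normalized levels these were 1861, 1790 and 1888 CPM in control and 3847, 3677 and 3125 CPM in RARαS77A cells. The lowest RARαS77A library thus lay well above the highest control, and control replicate 3 was close to the other controls. The increase was 0.94 on the log2 scale, with a standard error of 0.10 (adjusted p = 0.000334, edgeR) and higher levels in all 3 RARαS77A libraries. A two-sided exact permutation test gave p = 0.1, the smallest that 3 against 3 libraries allow. Groups that do not overlap, with RARαS77A above control, were found for 31.0% of the tested miRNAs. Without control replicate 3 the log2 fold change was 0.91 (adjusted p = 0.000327, edgeR). By count, miR-425-5p ranked 38 or 39 among all miRNAs of a control library, and 23 to 27 with RARαS77A. Its share of all counts, which involves no TMM factor, was 0.225% ± 0.00932 in control and 0.291% ± 0.0278 in RARαS77A cells (SD, n = 3 each), again without overlap. How many of all miRNAs separate by this share was not counted.

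hsa-miR-425-3p, the less abundant strand of the same hairpin, went the other way. Its counts were 1587, 2190 and 1297 in control and 612, 805 and 667 in RARαS77A libraries. These correspond to 127, 149 and 119 CPM in control and 77.9, 95.9 and 80.3 CPM in RARαS77A cells, so that every RARαS77A library lay below every control. The level fell by 0.64 on the log2 scale, with a standard error of 0.14 (adjusted p = 0.00979, edgeR; exact permutation test, p = 0.1). Separation in this direction was found for 27.1% of the tested miRNAs. Without control replicate 3 the log2 fold change was -0.77 (adjusted p = 0.00227, edgeR). With a term in the fit that sets control replicates 1 and 2 apart from the other 4 libraries, and so rests on 1 control library, it was -0.48 and lost the call (adjusted p = 0.0960, edgeR), whereas miR-425-5p kept it (0.91, adjusted p = 0.00531, edgeR). The call of miR-425-3p was also lost under upper quartile scaling (-0.43, adjusted p = 0.0701, edgeR).

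hsa-miR-191-5p was the most abundant strand of the cluster in the control libraries, ranking 22 to 25 there by count and 22 to 24 with RARαS77A. The transcription factor gene EGR1 is among its reported targets. It had 52684, 60236 and 46045 counts in control and 27747, 39279 and 29663 in RARαS77A libraries. After TMM scaling the controls lay close together at 4226, 4095 and 4207 CPM, and the RARαS77A libraries on both sides of them at 3530, 4678 and 3571 CPM. The groups differed by -0.09 on the log2 scale, with a standard error of 0.12 (adjusted p = 0.578, edgeR; exact permutation test, p = 0.4). RARαS77A replicate 2 was the only one of its group above the controls. The coefficient of variation was 1.69% in control and 16.6% in RARαS77A libraries, against 2.74% and 10.6% for miR-425-5p.

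The direction for miR-191-5p depended on the scaling. As a share of all counts it was 0.510% ± 0.0218 in control and 0.322% ± 0.0530 in RARαS77A cells (SD, n = 3 each), and the groups did not overlap. How many of all miRNAs separate on this scale was not counted. With scaling to total counts its log2 fold change was -0.66 (adjusted p = 0.00386, edgeR), but 213 of the 506 tested miRNAs were then called lower. With upper quartile scaling it was 0.12 (adjusted p = 0.441, edgeR). The mean TMM factors were 1.22 in control and 0.819 in RARαS77A libraries, and scaling to total counts moved the median of the 506 log2 fold changes from 0.06 to -0.51. Measured from that median, miR-191-5p was at -0.15 and miR-425-5p at 0.88 under both scalings. A change of scaling shifts all log2 fold changes by nearly the same amount. These distances could therefore hardly change, and their constancy is no check of either strand. They show only that miR-425-5p was above the median of the table and miR-191-5p slightly below it.

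hsa-miR-191-3p was the rarest strand, with 74, 144 and 69 counts in control and 28, 50 and 27 in RARαS77A libraries. Its levels were 5.94, 9.79 and 6.30 CPM in control and 3.56, 5.95 and 3.25 CPM in RARαS77A cells. The groups touched, since RARαS77A replicate 2 reached the level of control replicate 1. The log2 fold change of -0.79 had a standard error of 0.31 and did not pass the limit (adjusted p = 0.0740, edgeR; exact permutation test, p = 0.2). Counting error alone was wide at this depth, with a share of 0.000270% of all counts in RARαS77A replicate 3 (95% Wilson interval 0.000185 to 0.000392). Without control replicate 3 it was called lower (-0.95, adjusted p = 0.0366, edgeR), as it was without RARαS77A replicate 2 (-1.08, adjusted p = 0.0361, edgeR) and with total count scaling (-1.38, adjusted p = 0.0105, edgeR). Without control replicate 2 it was smaller (-0.50, adjusted p = 0.189, edgeR), as it was without RARαS77A replicate 3 (-0.63, adjusted p = 0.164, edgeR) and with the term that sets control replicates 1 and 2 apart (-0.56, adjusted p = 0.344, edgeR).

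**Figure D1:**
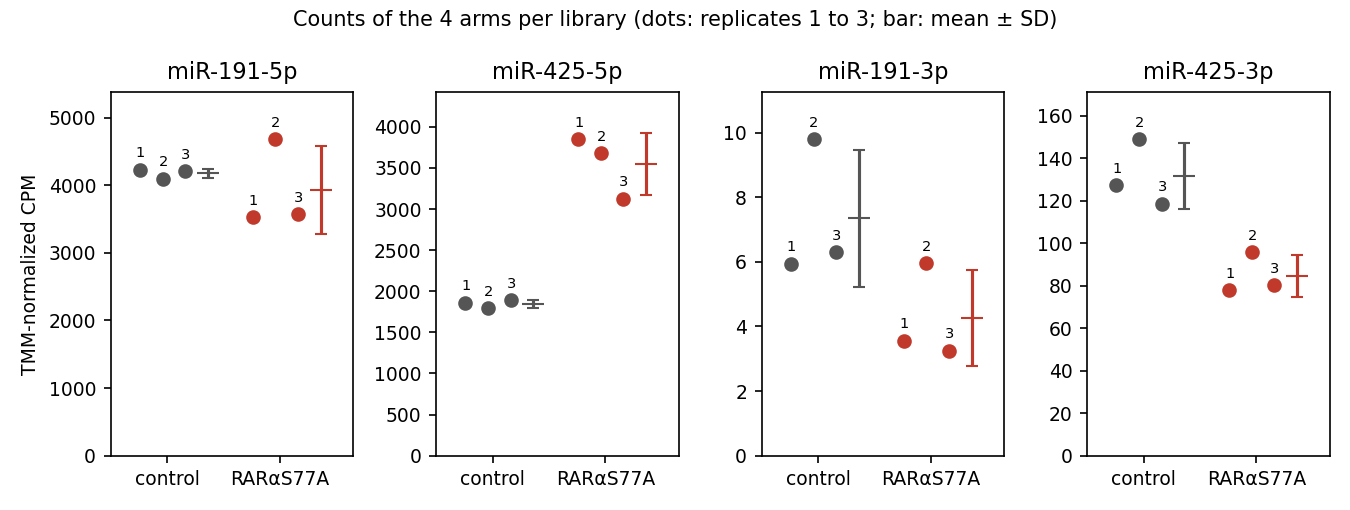
TMM-normalized CPM of each strand in each library (dots, numbered by replicate) with the mean ± SD of the group (bars, n = 3), on linear axes that start at 0. The RARαS77A libraries lie above the controls for miR-425-5p (3125 to 3847 against 1790 to 1888 CPM), below them for miR-425-3p, and on both sides of them for miR-191-5p.

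**Figure D2:**
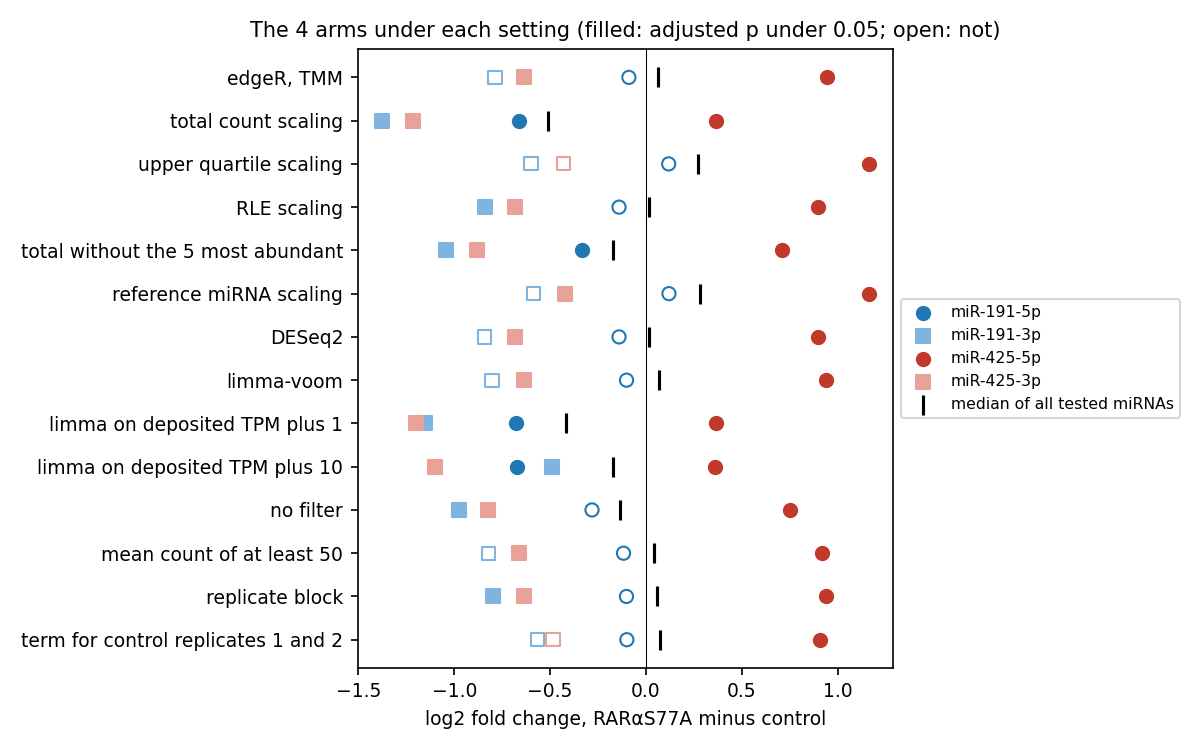
Log2 fold change of each strand (RARαS77A minus control) under the reported test and each alternative over all 6 libraries, with filled symbols for an adjusted p under 0.05 and black ticks for the median of all tested miRNAs. miR-425-5p lies right of 0 and filled in every row (0.36 to 1.16), while miR-191-5p ranges from -0.68 to 0.12 and lies left of the median in every row, farthest from it with limma on TPM plus 10.

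Ratios within a library do not depend on the scaling between libraries, so the strands were next compared with each other. In the control libraries there were 14.6, 12.0 and 15.9 counts of miR-425-5p for each count of miR-425-3p. In the RARαS77A libraries there were 49.4, 38.4 and 38.9. The ratio rose 2.97-fold, and every RARαS77A library exceeded every control by more than 2-fold. The log2 difference was 1.57 (standard error 0.21, adjusted p = 0.00133, limma over the 120 miRNA names with a tested 5p and 3p entry; exact permutation test, p = 0.1). Expressed as the share of 3p strands among all miR-425 counts, miR-425-3p made up between 5.91% (95% Wilson interval 5.60 to 6.23) and 7.68% (7.37 to 7.99) in control libraries and between 1.98% (1.83 to 2.15) and 2.54% (2.37 to 2.72) in RARαS77A libraries. The intervals cover counting error only. Without control replicate 3 the log2 difference was 1.66 (adjusted p = 0.00448, limma), and with the term that sets control replicates 1 and 2 apart 1.40 (adjusted p = 0.0213, limma).

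For miR-191 the 5p strand outnumbered the 3p strand far more. The ratios were 712, 418 and 667 in control and 991, 786 and 1099 in RARαS77A libraries. All 3 RARαS77A values lay above all 3 control values, but the controls were spread widely, with control replicate 2 lowest. The log2 difference of 0.69 (standard error 0.28) did not pass the limit (adjusted p = 0.0763, limma; exact permutation test, p = 0.1). It passed when both arms had to have a mean count of at least 50, which leaves fewer pairs (adjusted p = 0.0489, limma). Without control replicate 3 it was 0.78 (adjusted p = 0.111, limma), but without control replicate 2, the lowest, it was 0.45 (adjusted p = 0.164, limma). With the term that sets control replicates 1 and 2 apart it was 0.50 (adjusted p = 0.372, limma).

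A shift toward the 5p strand was called for 30.0% of the 120 arm pairs and a shift toward the 3p strand for 20.0%. Not all pairs need be separate. miR-423 (mean counts 9958.7 for 5p and 30539.2 for 3p) and miR-3184 (30409.5 and 9957.2) nearly mirrored each other. They were called in opposite directions (log2 difference 1.43 and -1.43), and whether such entries share reads was not tested. Ratios without overlap in the 5p direction, as seen for both miR-191 and miR-425, occurred in 34.2% of the pairs. The shift toward 5p of miR-425 ranked 13 and that of miR-191 ranked 40 among the 120 pairs. miR-425 was 1 of 11 pairs whose arms were called in opposite directions, and in 8 of these the 5p strand was higher and the 3p strand lower. The less abundant arm, which in this cluster is the 3p arm of both hairpins, was called lower in 37 pairs and higher in 18, and its median log2 fold change was -0.19 over the 120 pairs. The more abundant arm was called lower in 23 and higher in 37, with a median of 0.22. The ratio of the more to the less abundant arm was called higher in 45 pairs and lower in 15. Its median log2 difference was 0.36. By this ratio 17 pairs rose by more than miR-425 and 48 by more than miR-191.

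**Figure D3:**
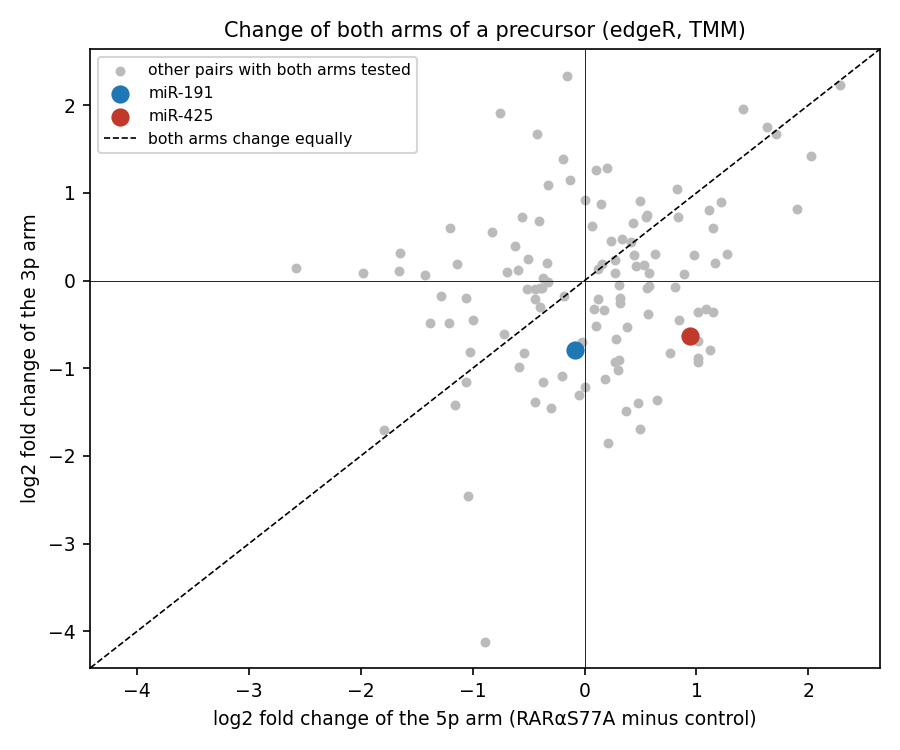
Log2 fold change (RARαS77A minus control, edgeR with TMM) of the 5p strand against that of the 3p strand for the 120 miRNA names with a tested 5p and 3p entry, each as a point, with a dashed line where both arms change equally. miR-425 (0.94 and -0.64) lies farther below the line than miR-191 (-0.09 and -0.79), and both 3p strands lie below 0.

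The strands were then compared between the hairpins. There were 2.27, 2.29 and 2.23 counts of miR-191-5p per count of miR-425-5p in control libraries, which differed by little, and 0.918, 1.27 and 1.14 in RARαS77A libraries. The RARαS77A libraries thus all lay below the controls, and in RARαS77A replicate 1 miR-425-5p was the more abundant of the pair. The log2 difference between the groups was -1.04 (standard error 0.14, exact permutation test, p = 0.1) and stayed between -1.14 and -0.91 when single libraries were left out. Without control replicate 3 it was -1.05. How many other pairs of miRNAs separate by such a ratio was not counted.

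The corresponding ratio of the 3p strands showed no such separation. There were 0.0466, 0.0658 and 0.0532 counts of miR-191-3p per count of miR-425-3p in control and 0.0458, 0.0621 and 0.0405 in RARαS77A libraries. The groups overlapped, with a log2 difference of -0.15 (standard error 0.23, exact permutation test, p = 0.5). The difference between both contrasts was tested as the log2 5p to 3p ratio of miR-191 minus that of miR-425. It was 5.60, 5.12 and 5.38 in control and 4.30, 4.34 and 4.79 in RARαS77A libraries, without overlap (difference -0.88, standard error 0.21, exact permutation test, p = 0.1). In all 3 RARαS77A libraries this value was thus lower than in any control. How many other pairs of hairpins separate by such a value was not counted.

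Added up, both strands of miR-191 took 0.511% ± 0.0221 of all counts in control and 0.322% ± 0.0531 in RARαS77A cells, and both strands of miR-425 took 0.241% ± 0.0112 and 0.298% ± 0.0279 (SD, n = 3 each). The 5p strands set these sums, so a precursor total hides the fall of miR-425-3p.

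The likeness of other miRNAs was measured as the root mean square difference of log2 CPM over the 6 libraries, after centring each miRNA on its own mean, among the 252 other miRNAs whose mean count reached 100. Closest to miR-191-5p were miR-30c-5p, at 0.0695, and the entries miR-103b and miR-103a-3p, at 0.0759 and 0.0769. Their log2 fold changes were -0.05, -0.09 and -0.09, without a call (adjusted p = 0.733, 0.599 and 0.610, edgeR). miR-103b comes from the strand opposite miR-103a, so reads of miR-103a-3p and miR-103b cannot be told apart without strand. Closest to miR-425-5p were miR-4326, at 0.0324, miR-574-5p, at 0.0716, and miR-378d, at 0.105, with log2 fold changes of 0.92, 0.89 and 0.99 (adjusted p = 0.00116, 0.000493 and 0.00159, edgeR). By the same measure miR-191-5p and miR-425-5p differed by 0.538 from each other, their 3p strands by 0.210, and miR-425-5p and miR-425-3p by 0.803. No other entry of the table had counts within 5% of any of the 4 strands in every library.

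Of 18 other miRNAs in common use as qRT-PCR references, 4 were higher, 7 were lower and 7 were not called in RARαS77A cells, with a median log2 fold change of -0.18. Over all tested miRNAs 23.3% were higher and 21.1% lower, with a median of 0.06. The largest increase was that of miR-423-5p (1.09, adjusted p = 0.000253, edgeR) and the largest decrease that of miR-107 (-1.33, adjusted p = 0.000334, edgeR). miR-191-5p was likewise not called, and miR-425-5p exceeded all of the 18 except miR-423-5p. The entry miR-3184-3p had nearly the mean count of miR-423-5p (9957.2 against 9958.7) and the same log2 fold change (1.09). Whether these entries share reads was not tested. With the libraries scaled to the geometric mean of these 18, the log2 fold change was 0.12 for miR-191-5p (adjusted p = 0.271, edgeR) and 1.16 for miR-425-5p (adjusted p = 0.000156, edgeR). This scaling also moved the median of all tested miRNAs from 0.06 to 0.28, so both values shifted with the table.

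Of 31 other miRNAs with a protein-coding host gene, 29 were tested, of which 7 were higher, 7 were lower and 15 were not called, with a median log2 fold change of 0.00. These shares were near the 23.3% higher and 21.1% lower of all tested miRNAs, whose median was 0.06. They ranged from -1.43 for miR-106b-5p, from an intron of the replication gene MCM7 (adjusted p = 0.000237, edgeR), to 2.34 for miR-151a-3p, from an intron of the focal adhesion kinase gene PTK2 (adjusted p = 4.33e-05, edgeR). Their partner strands miR-106b-3p (0.07, adjusted p = 0.656, edgeR) and miR-151a-5p (-0.16, adjusted p = 0.307, edgeR) were not called. Of the 29, 4 had a larger log2 fold change than miR-425-5p and 11 a smaller one than miR-191-5p.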

How the data were processed

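Small RNA libraries of 3 control and 3 RARαS77A samples of MDA-MB-231 cells were analysed. The authors deposited 1 table of whole read counts per miRNA, not normalized, and of TPM. Each deposited TPM value equals the CPM of its count over the column sum, without a length term. The submitters' processing notes name Bowtie, with no version or role. The sources used here do not give the reference, its build or the treatment of reads with several matches.

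Here, counts were tested with edgeR 4.0.16 (R 4.3.3; glmQLFit and glmQLFTest, TMM, filterByExpr with a minimum count of 10, no block) over all miRNAs passing the filter, with a Benjamini-Hochberg adjusted p limit of 0.05. Standard errors were taken from F, as the absolute log2 fold change over its square root. Arm ratios were tested with limma 3.58.1 (trend) on log2 of 5p over 3p counts, with 0.5 added to each. The test ran over all miRNA names with a tested 5p and 3p entry. Hairpins whose arms carry different names, such as miR-125b-5p and miR-125b-1-3p, were left out. Standard errors of the ratios between hairpins use the pooled SD of the groups. Alternatives used DESeq2 1.42.0, limma-voom, limma on deposited TPM (log2, with 1 or 10 added), other scalings and filters, a replicate block, a term for control replicates 1 and 2 and each library left out. Permutation tests were exact and two-sided (scipy 1.17.1). Scripts were tested on simulated data. Depth was 9019266 to 11338580 counts per library. Coordinates and host genes are from GENCODE 29, sequences from RefSeq (GRCh38.p14), which gave a mature sequence for 3 of the 4 strands and for 1342 of the 1582 table entries.

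The 4 members were named by rule. Also named were the 3 miRNAs most like each 5p strand, miRNAs sharing a seed, and the extremes of the reference and intronic lists. The members and lists were chosen with earlier results of these data known. The 3p ratio and its comparison with the 5p ratio were added after the data had been seen. Replicate numbers were not used to pair the libraries in the reported tests, and a replicate block is given under the dependence on processing.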

Additional observations from a re-analysis of the deposited data

How the results depend on the processing

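miR-425-5p kept its direction and its call in all 19 alternatives (log2 fold changes from 0.36 to 1.16), and the arm ratio of miR-425 in all 10 (1.40 to 1.66). The ratios between the hairpins moved by less than the SD of the replicates. miR-425-3p was negative throughout and lost its call under upper quartile scaling (-0.43) and with the term that sets control replicates 1 and 2 apart (-0.48), which rests on 1 control library. miR-191-5p gained a call under total counts (-0.66), total counts without the 5 most abundant miRNAs (-0.33) and limma on TPM plus 1 and plus 10 (-0.68 and -0.67), and was positive without a call under upper quartile and reference scaling (0.12 each). miR-191-3p gained a call under total counts (-1.38), RLE scaling (-0.84), total counts without the 5 most abundant (-1.04), limma on TPM plus 1 and plus 10 (-1.15 and -0.49), no filter (-0.98) and the replicate block (-0.80). Without single libraries it lay between -1.08 and -0.50. The arm ratio of miR-191 (0.69) gained a call where both arms had a mean count of at least 50, which tests fewer pairs.

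Over the table, 118 higher and 107 lower miRNAs became 51 and 213 under total counts, 55 and 221 with limma on TPM plus 1, 59 and 218 with plus 10, and 76 and 55 with the term for control replicates 1 and 2, and 162 were lower with no filter. With that term 12 arm pairs moved toward 5p and 15 toward 3p, in place of 36 and 24. For these changes the cause was not tested. Deviations of libraries with the same number correlated at 0.0390, 0.0992 and 0.0209 across miRNAs. No correlation of libraries with different numbers was set beside these, so whether the libraries are paired was not tested. The replicate block gave 107 higher and 94 lower miRNAs. miR-191-3p rests on 27 to 144 counts per library.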

Other observations

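The difference between strands of a shared intron was set beside that in other host genes of the intronic list. In DALRD3 the log2 fold changes of the tested 5p strands lay 1.03 apart. In MCM7, a helicase gene of DNA replication, the listed strands, of either arm, ran from -1.43 (miR-106b-5p) to 0.14 (miR-25-3p), 1.56 apart. The more abundant miR-106b-3p (mean count 4370.5, against 3073.8 for miR-106b-5p) was at 0.07. The remaining listed strand, miR-93-5p (mean count 26576.5), was at -1.06, far from miR-25-3p (mean count 24155.3). In SKA2, a gene of the spindle and kinetochore complex, the listed strands miR-301a-3p (-1.16, adjusted p = 0.0533, edgeR) and miR-454-3p (-0.09) were 1.07 apart, but miR-301a-3p had a mean count of only 13.3, and the more abundant miR-301a-5p (mean count 443.5) was at -0.37, closer to miR-454-3p. In SMC4, a condensin gene, miR-15b-5p (-1.06) and miR-16-5p (-0.68) were 0.38 apart, and in NFYC, miR-30c-5p (-0.05) and miR-30e-5p (0.00) were 0.05 apart. miR-16-5p and miR-30c-5p also come from other loci, whose part in their counts was not tested. These spreads depend on which arm of a hairpin is listed, are descriptions and were not tested against each other.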
